A study of Mus musculus with 6 samples.

Results

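The Hist1 cluster of mouse chromosome 13 holds most of the genes for replication-dependent histones, and its DNA methylation was measured here in offspring liver. Its members were set by a rule on position, as the probes of a tiling array whose start lay in either of 2 stretches of build mm9. Earlier results of these data were known when the rule was set. The first stretch was chr13:21800000-21930000 and the second was chr13:23600000-23880000. Of 174638 probes on the array that are not controls, 505 met this rule. Of these, 1 carried a spot flag on at least 1 array and was left out, which left 102 in the first stretch and 402 in the second. Probes with starts at most 1000 bp apart were joined, and a run of at least 3 probes was called a region. The cluster gave 34 regions out of 21987 on the array, 10 in the first stretch and 24 in the second, and these held 502 probes. They are numbered R1 to R34 in order along the chromosome. The remaining 2 probes formed a run too short to count as a region.

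The samples were livers of 32-week-old mice whose mothers (dams) received a chromium-restricted diet or a control diet, with 3 arrays per group. The labels give no strain, no sex, no litter and no duration or composition of the diets, so the p-values cover only the spread among these 6 samples, which may be technical. The tissue label and the titles name liver, but the extraction label names fat. The probes could not be paired with genes, so liver and fat markers were not analysed here. Each array compared methylated DNA, immunoprecipitated with an antibody and labelled red, with input DNA of the same group, labelled green (MeDIP-chip). The value used is the log2 ratio of red over green, centred on the median of each array. A higher value stands for more recovered methylated DNA relative to the other probes, not for a percentage of methylated cytosines.

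Replication-dependent histone genes supply the linker histone H1 and the core histones H2A, H2B, H3 and H4 that package newly copied DNA. They are transcribed mainly in S phase, mostly have no introns, and end their messages in a stem-loop in place of a poly(A) tail. Variant histones such as H2A.Z, H3.3 and H1.0 are made outside S phase from genes elsewhere in the genome. Cytosine methylation in mammals falls mostly on CG dinucleotides, which is why the CG content of the promoters matters to this assay. Most cells of the adult liver are not dividing.

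In the RefSeq table of build GRCm38.p6, 54 protein-coding Hist1 genes lay on chromosome 13 in 2 groups. Of these, 23 came before the first and 31 after the last of 35 protein-coding Vmn1r genes, which encode vomeronasal pheromone receptors. The span from the first to the last Hist1 gene also held 77 tRNA genes. Among the other coding genes after the receptor block were Hfe, a regulator of iron uptake, and Slc17a1, Slc17a2, Slc17a3 and Slc17a4, a family of anion transporters. The table is on a later build than the probes, so which gene lies under which probe was not determined, and no region below is given a gene name. The term histone region below refers to position in the 2 stretches only, and such a region may hold other genes.

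The promoter sequences below are those of the Hist1 genes as annotated, and not all of them need lie in the 2 stretches. None was tied to a probe, so whether a given window was measured is not known. Promoter windows of 300 bases, 250 before the start and 50 after it, were present for 51 of the 54 genes (52 windows). They held a median of 10.5 CG dinucleotides, with a range of 3 to 27, against a median of 7 over all 32851 windows of the table. The upper quartile of all windows began at 20 CG, and 2 of the 52 histone windows reached it. Linker H1 promoters had a median of 13.5 CG and H4 promoters 13, while H2B had 10, H2A 9 and H3 8. The 11 windows of the Hist2, Hist3 and Hist4 genes, smaller histone loci elsewhere, had a median of 14. The 5 windows of replication-independent variant genes had a median of 29 CG. By the medians, the Hist1 promoters lay between all promoters and those of the variant genes.

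One promoter per histone family, the first by symbol, is printed to show this range, as the 250 bases before the start on the gene's own strand. Capitals mark CG dinucleotides. H1f1 encodes a linker histone (chr13:23763418-23763667, plus strand, 11 CG). H2ac1 encodes a testis H2A (chr13:23934187-23934436, plus strand, 6 CG). H3c10 encodes an H3 (chr13:21717378-21717627, plus strand, 6 CG). H4c1 encodes an H4 (chr13:23761250-23761499, minus strand, 27 CG). All positions are on GRCm38.p6 and cannot be set beside the mm9 positions of the probes.
H1f1: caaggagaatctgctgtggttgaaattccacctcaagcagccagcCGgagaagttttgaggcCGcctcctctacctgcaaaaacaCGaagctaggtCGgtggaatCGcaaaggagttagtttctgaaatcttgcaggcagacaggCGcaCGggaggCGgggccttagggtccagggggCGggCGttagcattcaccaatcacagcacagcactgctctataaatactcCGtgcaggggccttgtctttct
H2ac1: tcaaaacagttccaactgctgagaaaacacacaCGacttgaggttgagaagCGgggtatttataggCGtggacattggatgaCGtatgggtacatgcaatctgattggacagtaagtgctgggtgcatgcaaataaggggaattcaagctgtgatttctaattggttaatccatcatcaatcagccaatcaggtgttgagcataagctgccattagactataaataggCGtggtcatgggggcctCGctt
H3c10: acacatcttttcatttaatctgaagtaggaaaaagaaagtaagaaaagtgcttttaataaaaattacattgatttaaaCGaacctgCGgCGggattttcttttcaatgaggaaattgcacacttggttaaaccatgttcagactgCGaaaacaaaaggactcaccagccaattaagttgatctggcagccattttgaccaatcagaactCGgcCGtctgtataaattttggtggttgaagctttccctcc
H4c1: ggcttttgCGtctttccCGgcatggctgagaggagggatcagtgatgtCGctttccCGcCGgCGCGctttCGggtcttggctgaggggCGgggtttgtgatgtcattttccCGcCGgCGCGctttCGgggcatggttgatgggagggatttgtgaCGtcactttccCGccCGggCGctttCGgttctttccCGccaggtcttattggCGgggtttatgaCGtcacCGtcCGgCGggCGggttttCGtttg
The H2B gene H2bc1 is the divergent neighbour of H2ac1, and the 250-base windows of the pair overlap by 220 bases, so its sequence is not printed separately. The contrast in the lines above is between H4c1, with its dense runs of CG, and H3c10, where CG is sparse.

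Both strands of each 300-base window were searched for TATAAA, the TATA-box core, and CCAAT, the motif bound by NF-Y. A match of one motif can share at most 1 base with a match of the other. TATAAA occurred in 59.6% of Hist1 windows and in 13.6% of all windows of the same length. CCAAT occurred in 84.6% and 37.4%. By family, CCAAT was present in every H1, H2A, H2B and H3 window but in 27.3% of the 11 H4 windows. In the printed sequences, TATAAA on the gene's strand began 33 bases before the start in H1f1, 32 in H2ac1 and 31 in H3c10. The 250 printed bases of H4c1 held no TATAAA and 1 CCAAT, on the opposite strand; its TATAAA match lay in the part of the window that is not printed. These matches describe the letters of the windows only.

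The second stretch held long runs of probes. Regions of at least 20 probes numbered 38 on the whole array (0.173% of regions), and 5 of them lay in the second stretch, with 222 probes. R26 (chr13:23766152-23784309) and R30 (chr13:23822417-23838932) held 74 probes each, and 9 regions on the array had 70 or more. The median cluster region held 9 probes over 2004.5 bp, against 8 probes over 1645 bp on the array. In the first stretch, R1, R9 and R10 were the largest, with 14 probes each.

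Signal was weaker in the second stretch in both channels. Its median input signal was 0.50 to 0.60 of the median over all probes on the 6 arrays, and its immunoprecipitated signal 0.47 to 0.50. In the first stretch the same ratios were 0.90 to 1.05 and 0.78 to 0.83. Probes that cleared the background in red and green on each of the 6 arrays (called well above background here, by the scanner software's flag) made up 65.7% of the first stretch, 51.0% of the second and 67.5% of all probes. No spot of the cluster was saturated. For 28 probes of the cluster (5.56%, against 4.73% of all probes) the input was well above background on all 6 arrays and the immunoprecipitate on none. Their ratios, with a median of -2.19, are upper bounds.

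The histone cluster had an intermediate methylation signal in every sample, close to the average of the array. The mean over its 34 regions was -0.16, -0.23 and -0.14 in chromium-restricted arrays 1, 2 and 3, and -0.28, -0.11 and -0.28 in control arrays 1, 2 and 3. Control array 2 was the highest and the other 2 control arrays the lowest, so the chromium-restricted arrays fell between them. Minus the mean of all other regions on the same array, the cluster ranged from -0.11 to 0.024, with a mean of -0.025 ± 0.050 (SD, n = 6 arrays). This offset was within the spread between arrays. With only probes well above background it was 0.14, so its sign depends on how weak probes are treated. In the plot of mean levels per array, the order of the stretches is the same on each array.

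**Figure D1:**
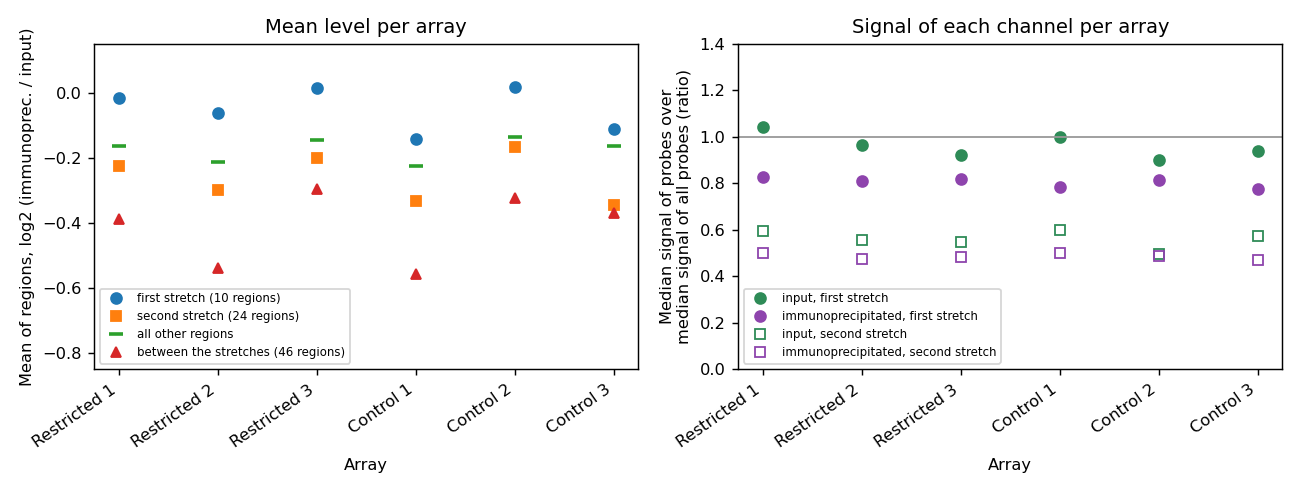
Left: mean log2 ratio of immunoprecipitated over input signal per array, for the first stretch (10 regions), the second stretch (24 regions), the 46 regions between them and all other regions; no error bars are drawn. Right: median signal of each stretch over the median of all probes on the same array. The first stretch lies above the second on 6 of 6 arrays, and the second stretch has input ratios of 0.50 to 0.60.

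The stretches differed from each other by more than the arrays did. The first stretch averaged -0.017, -0.061 and 0.015 in chromium-restricted arrays 1, 2 and 3, and -0.14, 0.018 and -0.11 in the control arrays. For the second stretch these means were -0.23, -0.30 and -0.20, and -0.33, -0.17 and -0.34. The first stretch was higher on 6 of 6 arrays, by 0.18 to 0.24, with a mean of 0.21 ± 0.021 (SD, n = 6 arrays). That SD covers readings of the same probes on 6 arrays, not the spread between regions. Within an array the SD over the cluster's regions was 0.36 to 0.40, larger than the difference between the stretches. Signal moved with this difference, since the second stretch was also the dimmer one, and its part in the result was not tested. With only probes well above background the difference was 0.25. The first stretch stood above all other regions by 0.12 ± 0.046 while the second differed from them by -0.087 ± 0.053 (SD, n = 6 arrays). With only probes well above background the cluster as a whole stood 0.14 above all other regions. The negative offset of the second stretch may therefore not hold under that filter, and its value there was not determined.

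Between the stretches the array held 46 regions, mostly lower than the histone regions. Their mean was -0.41 ± 0.11 (SD, n = 6 arrays). The cluster mean lay above it on 6 of 6 arrays, by 0.093 to 0.31. Of these regions 21 of 46 were in the lowest quartile of all region means, compared with 7 of 34 histone regions. The values in between were also more scattered, from -1.83 to 0.95, while the histone regions ran from -0.87 to 0.44. The 46 regions held 348 probes and the 34 histone regions 502, and what this adds to the scatter was not tested. The level of the 46 regions with only probes well above background was not determined.

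Most histone regions lay in the middle of the array's range. Their 6-array means fell 7, 12, 11 and 4 into the quartiles of all regions, from the lowest to the highest. There were 4 of the 34 among the lowest 10% of all regions, near the background share, and 0 among the highest 10%. The SD over the cluster's regions was 0.36 to 0.40 on the 6 arrays, against 0.57 to 0.65 over all regions. Below 0 on all 6 arrays were 18 regions, 3 of them in the first stretch, and 6 regions were above 0 on all 6. The median of all region means was itself below 0, at -0.11. The shares of all regions below or above 0 on every array were not determined, so these counts do not set the cluster apart. The plot of every region by array shows the low regions R7, R10, R14 and R27 apart from their neighbours.

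**Figure D2:**
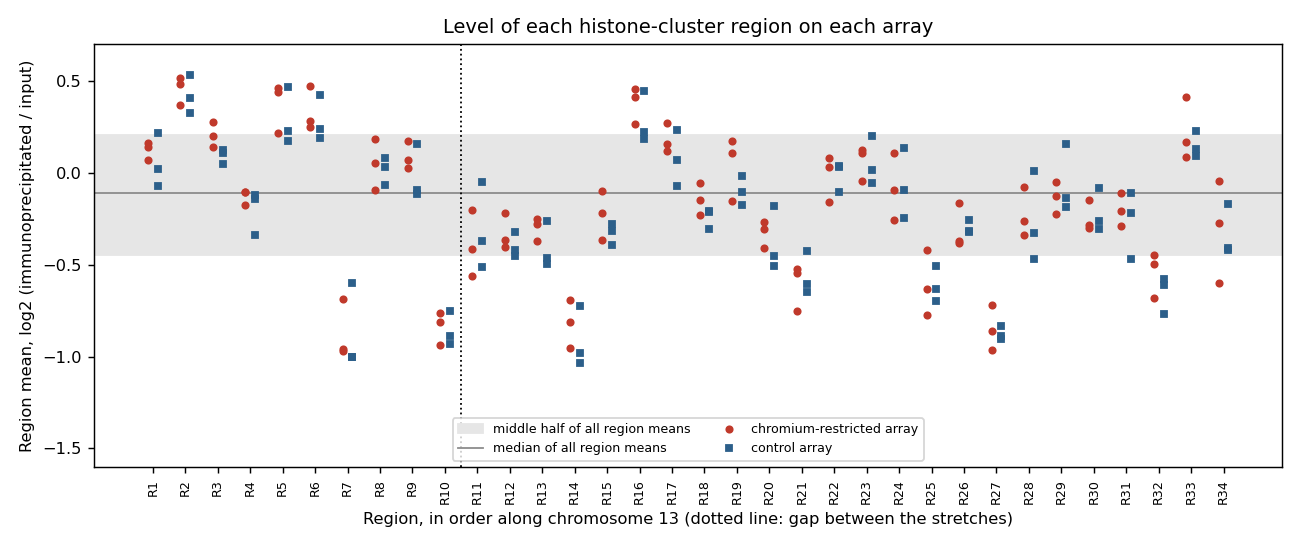
Mean log2 ratio of each of the 34 regions on each array, in order along chromosome 13, with circles for chromium-restricted and squares for control arrays. The grey band spans the interquartile range of all region means (-0.45 to 0.20) and the grey line their median (-0.11); R7, R10, R14, R27 and R32 lie below the band on all 6 arrays and R2 above it on all 6.

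The highest region was R2 (chr13:21812764-21814255, 8 probes), at 0.52, 0.48 and 0.37 in the chromium-restricted arrays and 0.41, 0.53 and 0.32 in the control arrays. Its mean of 0.44 was at percentile 89.1 of all regions. R16 (chr13:23653774-23655412, 8 probes) was the highest of the second stretch, at 0.27, 0.46 and 0.41 against 0.22, 0.44 and 0.18. Both regions were above 0 on 6 of 6 arrays with overlapping groups.

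R5 (chr13:21844880-21847066, 11 probes) read 0.46, 0.21 and 0.44 in the chromium-restricted and 0.17, 0.47 and 0.23 in the control arrays. R6 (chr13:21872067-21873574, 7 probes) read 0.47, 0.28 and 0.25, and 0.19, 0.42 and 0.24. In both, control array 2 stood with the higher chromium-restricted arrays. R33 (chr13:23852724-23855897, 15 probes) read 0.086, 0.17 and 0.41, and 0.091, 0.22 and 0.13, with chromium-restricted array 3 above the rest. The SDs over 6 arrays were 0.084 to 0.14 for these 5 regions, whose means ran from 0.19 to 0.44, so R5, R6 and R16, between 0.31 and 0.33, do not differ beyond their spread.

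The 4 lowest regions had nearly the same level, from -0.87 to -0.85. R7 (chr13:21874784-21876505, 9 probes) read -0.96, -0.97 and -0.69 in the chromium-restricted arrays and -1.0, -0.60 and -1.0 in the control arrays. R14 (chr13:23643164-23644643, 7 probes) read -0.69, -0.95 and -0.81, and -0.98, -0.73 and -1.04. The control arrays spanned the chromium-restricted ones in R7, and the groups overlapped in R14. R27 (chr13:23786380-23788169, 8 probes) read -0.97, -0.86 and -0.72, and -0.90, -0.84 and -0.89. R10 (chr13:21923668-21926616, 14 probes) read -0.81, -0.94 and -0.76, and -0.93, -0.75 and -0.89. These 4 do not differ from each other beyond their spread between arrays (SD 0.082 to 0.18).

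The low means drew on probes with little red signal, and a filter that asks for red signal removes low ratios by its construction. Over all probes of the array, those well above background averaged 0.13 and the others -0.78. The probes of R7 well above background, 4 of 9, averaged 0.53, and those of R10, 9 of 14, averaged 0.18, although 3 of its other probes had input signal alone. The corresponding mean was -0.13 over 3 of 7 probes in R14. In R27 it was -0.73 over 4 of 8, the lowest of the 4.

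R25 (chr13:23757067-23764050, 24 probes) and R32 (chr13:23847506-23849245, 8 probes) came next. R25 read -0.63, -0.77 and -0.42 in the chromium-restricted and -0.70, -0.51 and -0.63 in the control arrays. R32 read -0.50, -0.45 and -0.68, and -0.58, -0.61 and -0.77. The level changed along R25. Its first 2000 bp averaged -1.11 over 7 probes, the next 2000 bp averaged -0.88 over 8, and the following 2000 bp averaged 0.0092 over 7. This order held on 6 of 6 arrays. Probes well above background numbered 2, 3 and 4 in these bins. The last bin, with 2 probes, averaged 0.049 and was lower than the bin before it on 3 of 6 arrays.

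Region R24, next to R25, also ended high, with 0.93 over the 4 probes of its last bin against -0.43 over the 6 probes of its first. These bins were chosen after their values were seen. Probes of a bin share flanking sequence and fragments, so they are not independent.

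The 2 longest regions had an internal pattern that recurred on every array rather than one level. R26 averaged -0.38, -0.37 and -0.16 in the chromium-restricted and -0.31, -0.26 and -0.32 in the control arrays. R30 averaged -0.29, -0.30 and -0.15, and -0.30, -0.084 and -0.26. In bins of 2000 bp from the first probe, R26 was lowest between 14000 and 16000 bp, at -1.30 over 7 probes, and read between -1.70 and -1.05 there on the 6 arrays. The bin before it averaged 0.24 over 8 probes, of which 1 was well above background on all arrays, against 4 of 7 in the low bin. R30 was highest between 10000 and 12000 bp, at 0.40 over 8 probes, and fell to -0.66 over 10 probes in the next bin. Of those 10 probes, 1 was well above background on all arrays, compared with 4 of 8 in the higher bin. On 6 of 6 arrays the dip of R26 and the step of R30 had the same direction, as the profiles along the 2 regions show.

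**Figure D3:**
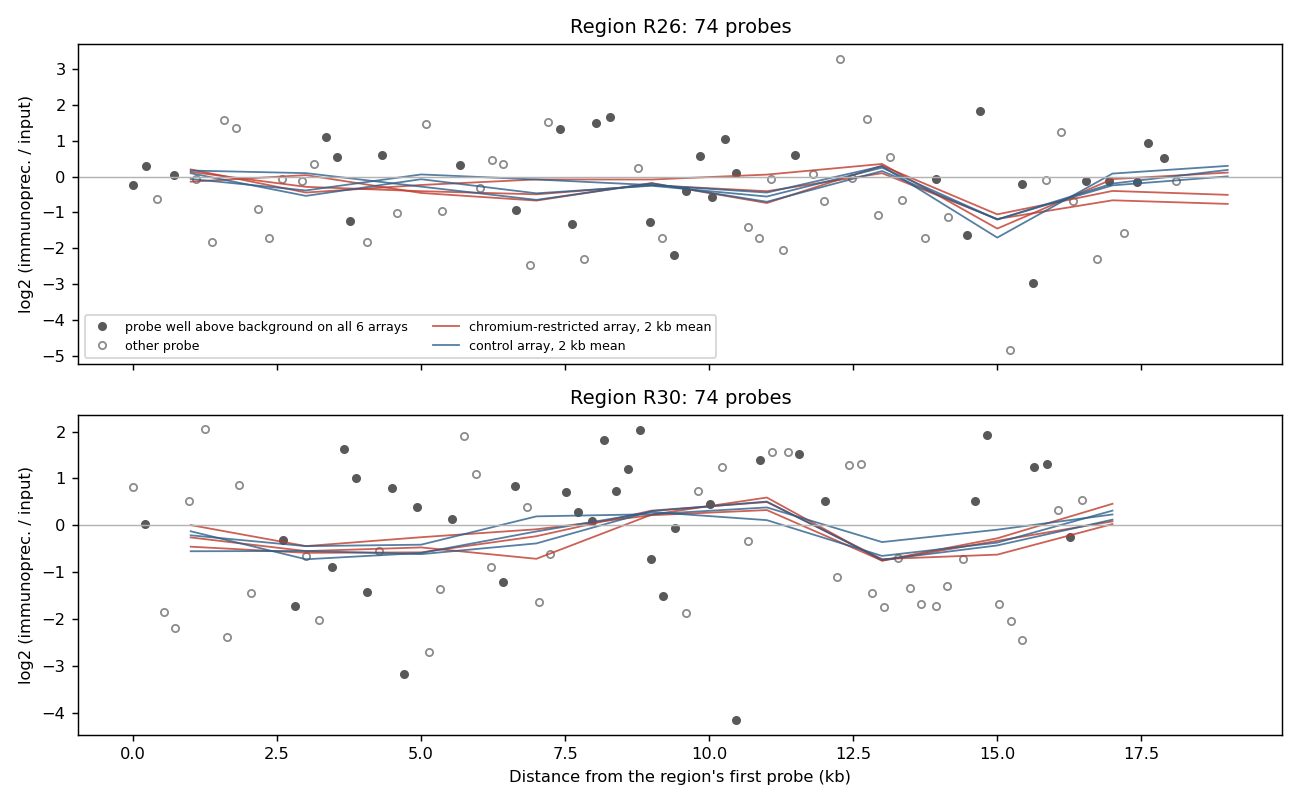
Log2 ratio of each probe (6-array mean; filled points passed the background flag in red and green on each array) against distance from the first probe in R26 and R30, with lines for the 2000 bp bin means of each array, red for chromium-restricted and blue for control. The lines of both groups run together, with a low bin at -1.30 in R26 and a high one at 0.40 in R30; the last bin of R26 holds 1 probe and that of R30 holds 3.

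Single probes of one region varied far more than a region did between samples. The SD between probes within a region had a median of 1.30 in the cluster and 1.12 on the array, and 21 of 34 histone regions were above the latter. The SD of a region over the 6 arrays had a median of 0.11 in both. Probe means ran from -4.84 to 3.30, with both ends in R26. Below -2 were 9.13% of the cluster's probes and 8.60% of all probes, and above 1 were 19.0% and 16.8%. Arrays correlated at 0.88 to 0.98 over the 34 regions, as a description, since neighbouring regions share input and scan. Over all regions of the array these correlations were 0.91 to 0.98. The profile of ratios along the cluster was thus much the same on the 6 arrays, as was that of the whole array. How far the probes themselves set this profile was not tested.

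The question of the design is whether the diet of the dams left a methylation difference in the offspring, and no histone region passed the test. With limma over all regions and Benjamini-Hochberg adjustment at 0.05, 0 of 34 regions were called, and the array as a whole gave 0 calls (0%); the lowest adjusted p in the cluster was 1.0. At an unadjusted p under 0.05 there were also 0 of 34, against 0.896% of all regions. Differences, chromium-restricted minus control, ran from -0.080 in R11 to 0.14 in R19. The half-width of the 95% confidence interval had a median of 0.22, and all 34 intervals held 0. The bounds reached from -0.39 in R11 to 0.38 in R19. The plot of differences sets these intervals against the spread of all regions.

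**Figure D4:**
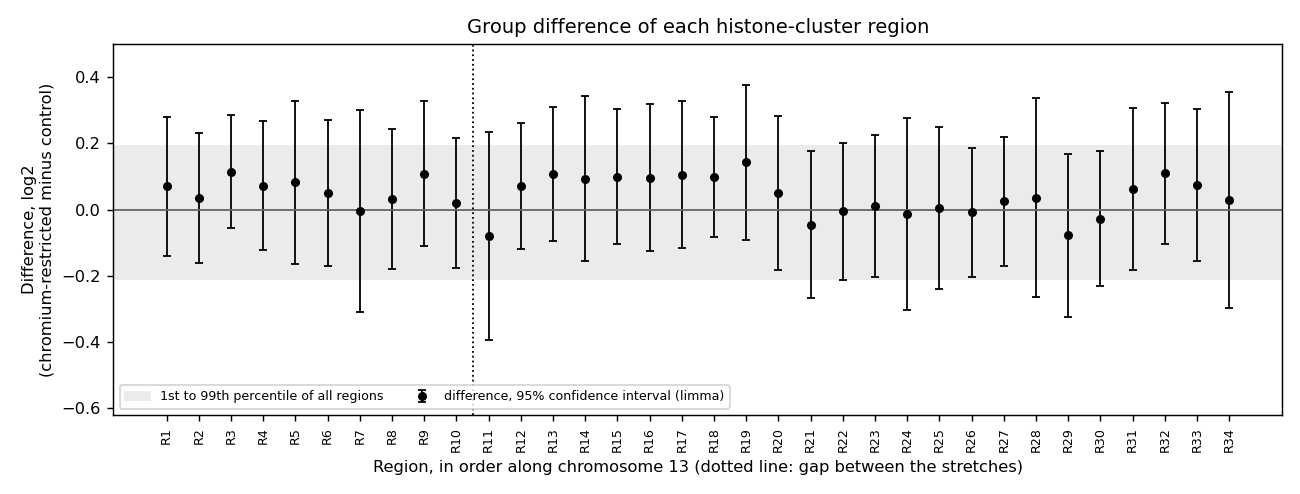
Difference in mean log2 ratio (chromium-restricted minus control, n = 3 arrays each) of each region with its 95% confidence interval from limma; the grey band spans the 1st to the 99th percentile of all regions, -0.21 to 0.19. All 34 intervals include 0 and all 34 point values lie within the band.

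More histone regions were higher than lower in the chromium-restricted group, but single arrays set that count. It was 26 of 34, against 52.5% of all regions, and the median difference was 0.050 against 0.0040 over all regions. Without control array 2 it was 34 of 34, and without chromium-restricted array 3 it was 18 of 34. The share over all regions without these arrays was not determined, so neither count is set against a background. The mean over the cluster was -0.18 ± 0.047 in chromium-restricted and -0.22 ± 0.095 in control samples (SD, n = 3 each). Their difference of 0.045 was smaller than the SD of the control group. It was 0.10 without control array 2, 0.017 without control array 1, 0.018 without control array 3, 0.071 without chromium-restricted array 2 and 0.025 without chromium-restricted array 3. Within scan 1 it was 0.11, within scan 2 -0.12 and within scan 3 0.14. So the sign was not the same in each scan. Slide position was the same for all arrays of a group and differed between groups, so position and diet cannot be told apart.

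Within each group, array brightness moved with these values. Control array 2 and chromium-restricted array 3 had the dimmest input, with medians of 38.1 and 46.1 over all probes, and the highest cluster means of their groups. Control array 1 and chromium-restricted array 2 had the brightest, 98.3 and 83.8, and the lowest cluster means of their groups. Control array 3, at 60.4, was dimmer than both, but its cluster mean of -0.28 was level with that of control array 1. The cluster difference was 0.040 with each array's input brightness as a term in the fit. What brightness contributed beyond this was not tested.

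R3 (chr13:21825719-21827098) was the only 1 of 34 regions in which the groups did not overlap. It read 0.14, 0.27 and 0.20 in the chromium-restricted arrays and 0.11, 0.045 and 0.12 in the control arrays. The difference was 0.11 ± 0.075 (SE), with an unadjusted limma p of 0.164, the smallest in the cluster, and an adjusted p of 1.0. Over the array, 2.49% of regions were separated with the chromium-restricted group higher and 1.95% with it lower (4.44% together), so 1 of 34 was near the background. All 7 probes of R3 were well above background on every array.

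The next smallest p-values belonged to R19, R18, R13, R32 and R9, whose groups all overlapped. R19 (chr13:23672254-23673592, 7 probes) read 0.17, 0.11 and -0.16 in the chromium-restricted and -0.11, -0.18 and -0.020 in the control arrays, with a difference of 0.14 ± 0.10 (SE). R18 (chr13:23665523-23667982, 12 probes) read -0.15, -0.055 and -0.23, and -0.22, -0.21 and -0.31. Their unadjusted limma p-values were 0.200 and 0.248. For R13 (chr13:23634621-23636525, 10 probes) the values were -0.25, -0.37 and -0.28, and -0.50, -0.26 and -0.46. R9 (chr13:21900944-21903907) read 0.068, 0.025 and 0.17, and -0.12, 0.15 and -0.094. In R13 and R9 the difference was 0.11, and in both control array 2 lay within the range of the chromium-restricted arrays. The difference was also 0.11 in R32.

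R1 (chr13:21806981-21809789), the remaining one of the largest regions of the first stretch, read 0.14, 0.071 and 0.16 in the chromium-restricted and -0.072, 0.22 and 0.020 in the control arrays. Its control arrays surrounded the chromium-restricted ones. In the long regions R26 and R30 the differences were -0.0087 ± 0.085 and -0.027 ± 0.089 (SE). The median SE in the cluster was 0.096, so the many probes of these regions made their differences little more precise.

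By probe, 0 of 504 passed the adjusted threshold, as did 0% of all probes. At an unadjusted p under 0.05 there were 10 (6 higher and 4 lower in the chromium-restricted group), against 1.30% of all probes (0.685% higher and 0.612% lower). The count of 10 of 504 is small, and 284 of 504 probes were higher in the chromium-restricted group, against 50.5% of all probes.

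The smallest p, 0.00138 unadjusted by limma, was that of a probe of R26 starting at 23770736, at -1.62, -1.87 and -1.23 in the chromium-restricted and -0.74, -0.43 and -0.29 in the control arrays. It was well above background on 0 arrays in either channel, so no fold is given. The second was a probe of R11 starting at 23622122, at -0.95, -0.83 and -0.90 against -0.44, -0.43 and -0.36, and its immunoprecipitated signal was well above background on 0 arrays. Both probes were separated by group but dim.

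The probe with the third smallest p, starting at 23844429 in R31, was bright in both channels on 6 of 6 arrays. It read 3.28, 3.31 and 2.99 in the chromium-restricted and 2.83, 2.71 and 2.73 in the control arrays, a difference of 0.44 ± 0.15 (SE) with an unadjusted limma p of 0.0243 and an adjusted p of 1.0. Its region as a whole differed by 0.062 ± 0.11 (SE), and the groups of R31 overlapped.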

How the data were processed

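Scans of the 6 arrays were quantified by Agilent Feature Extraction (version 11.0.1.1), per the file headers. The deposited processed intensity of each channel had local background subtracted and was scaled by 1 linear factor per channel, per the file headers. The deposited log10 ratio of each spot and its p-value from the scanner software were not used. The authors' series value table holds normalized log ratios, and a log2 scale was assumed for it; its log base, centring and method are not given in the sources used here. It ran in the same direction as the scanner ratios (correlation 0.74 to 0.82 over cluster probes) and its column medians were 0.031 to 0.040. Deposited spot flags for uneven pixels or population outliers removed 360 probes, and 5827 control spots were left out.

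For each array the log2 ratio of processed red over green intensity was centred on the median of the kept probes, with no loess or quantile step. Region means and probes were fitted over the whole array with limma 3.58.1 in R 4.3.3 (lmFit, eBayes, group only) and Benjamini-Hochberg adjustment, and the fit was tested on simulated data. Other software was the R package data.table (version 1.17.8), Python 3.11.15 and matplotlib 3.10.9. The number of arrays limits the precision. The members and lists were chosen with earlier results of these data known. Named regions are the 6 highest, the 6 lowest, the 6 with the smallest p and those with the most probes in each stretch (ties included), and named probes are the 3 with the smallest p; R11, R24 and R31 and the bins were named after their values were seen.

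Alternatives were background correction by normexp with an offset of 50, the authors' values, only probes well above background, flagged spots kept, a replicate block, the input signal as covariate, medians over probes, a gap of 500 bp, every run of probes, and each array left out in turn. Normexp was planned on mean spot signals but run on the median signals. The arrays with the same number shared a scan. Promoter windows and gene order are from RefSeq on GRCm38.p6, and a gene annotation on mm9 was not used here.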

Additional observations from a re-analysis of the deposited data

How the results depend on the processing

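No region or probe of the cluster passed the adjusted threshold under any alternative that was run (15 for regions, 12 for probes), and the difference in the cluster mean stayed between 0.017 and 0.10. At an unadjusted limma p under 0.05, 1 region appeared under each of 6 alternatives. These were R16 after normexp, R17 with the authors' values or with flagged spots kept, and R18 with only probes well above background. R6 appeared with medians over probes, and R19 without chromium-restricted array 3. The share of all regions at that p was 0.17% after normexp, 0.68% with the authors' values and 0.48% with only probes well above background. It was 0.90% with flagged spots kept, 1.33% with medians over probes and 1.25% without chromium-restricted array 3. The level of the cluster relative to all other regions, -0.025, became -0.11 with the authors' values, 0.14 with only probes well above background and -0.088 with medians over probes. The first stretch stayed above the second, by 0.13 to 0.34. Of the 19 named regions, 6 kept the sign of their difference throughout and 0 reached an adjusted p under 0.05.

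Reversed differences were found in 13 named regions. After normexp they were 0.044 in R7, -0.015 in R14, -0.015 in R25, 0.00062 in R30 and -0.013 in R32. With the authors' values they were -0.0043 in R6, 0.050 in R7, -0.021 in R25, 0.0058 in R26 and -0.0011 in R32. With only probes well above background they were 0.20 in R7 and -0.011 in R19, and with the input covariate -0.0057 in R25. With medians over probes they were -0.0089 in R2, 0.14 in R7, -0.049 in R13, -0.011 in R14, 0.054 in R26, -0.022 in R32 and -0.056 in R33. Leaving out 1 array at a time gave -0.012 to 0.091 in R2, -0.018 to 0.12 in R6, -0.096 to 0.13 in R7, -0.017 to 0.073 in R10, -0.091 to 0.087 in R25, -0.080 to 0.030 in R26, -0.039 to 0.083 in R27, -0.076 to 0.039 in R30 and -0.022 to 0.14 in R33. For each of these the cause was not tested.

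A fit with the replicate number as a block gave 0 called regions, 0 called probes and a cluster difference of 0.045. Deviations of same-numbered arrays correlated at 0.15, -0.59 and 0.20, so the numbers were not taken as pairs. With 3 arrays per group, a region with the typical interval half-width of 0.22 has an interval that holds 0 when its difference is smaller. These intervals are for single regions and are not adjusted for the 21987 regions tested. The adjusted test asks for larger differences. Signal near background limits the second stretch most.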
